A study of Mus musculus with 15 samples.

Results

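The replication-dependent histone genes were examined in H3K27ac CUT&RUN data from a mouse model of fusion-positive rhabdomyosarcoma (FP-RMS), a skeletal muscle-like soft tissue cancer. They were taken by symbol, as the protein-coding RefSeq genes of the mouse build mm10 named for a histone cluster gene (symbols starting with Hist1h to Hist4h or, in the newer naming, with H1f and a digit, H2ac, H2bc, H3c or H4c). The rule found 67 genes among the 21000 protein-coding genes with a curated start site: 10 H1, 17 H2A, 16 H2B, 12 H3 and 12 H4 genes. Of these, 63 lay in 3 clusters, and 4 H1 genes (H1f0, H1f7, H1f8 and H1f10) stood alone on other chromosomes. These 4 are classed by textbooks as replication-independent or germ-line H1 genes and entered through their symbols. Another 4 genes (H4f16, H2bu2, H2aw and H4bc24) carried a cluster symbol only among their older names and were kept apart.

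CUT&RUN releases the DNA around an antibody-bound chromatin mark by a tethered nuclease, and acetylation of lysine 27 on histone H3 marks active promoters and enhancers. The values came from 1 peak list, that of MCP H3K27ac replicate 5. MCP tumors carry Cdkn2a(Flox/Flox) and Pax(3P3F/P3F), with the reporter R26-tdTom and Myf6-Cre: Cre made in muscle cells that express Myf6 deletes the tumor suppressor Cdkn2a, switches on the PAX3-FOXO1 fusion (P3F) from the Pax3 locus and turns on a tdTomato reporter. The series held 15 libraries (6 MCP H3K27ac, 3 MCP IgG, 3 TCP H3K27ac and 3 TCP IgG, TCP being the Tek-Cre tumors that carry the same alleles), and peaks of the other 14 were not analysed here. The study's methods speak of live tumor cells obtained by FACS, while the labels name DAPI as the live/dead marker and give no age. The share of host cells in the sample is not known. With 1 list there were no replicates and no test between conditions, so every interval below covers counting error alone and no p-value is given. The list held 122375 peaks. Its tissue label was checked against marker genes of 3 cell types: a promoter peak was listed for 2 of 13 myogenic genes (15.4%, Pax3 and Myf6, but not Myod1, Myog or Des), 1 of 14 endothelial genes and 2 of 8 immune genes. None of these shares reached that over all protein-coding genes, so the check did not favor muscle over the other cell types.

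Histone proteins package DNA, and a dividing cell must make a full new set while it copies its genome. The replication-dependent genes supply that set in S phase. As a rule they lack introns, lie in clusters that gather in the histone locus body around the coactivator NPAT, and give mRNAs that end in a conserved stem-loop instead of a poly(A) tail. Some genes of the rule have much longer RefSeq records, among them H2bc6 (chr13:23583670-23621124) and H2bc22 (chr13:21787483-21801561). The stem-loop is bound by SLBP, and the U7 snRNP with its proteins LSM10 and LSM11 directs the cut that makes the mRNA end. H2A, H2B, H3 and H4 form the nucleosome core, and H1 binds the linker DNA.

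The stem-loop was searched for within 200 bases after the stop codon in the genome sequence and was present in 59 of the 67 genes, against 31 of 20933 other protein-coding genes (0.148%). It lay 22 to 59 bases after the stop codon, with a median of 32 bases. The 8 genes without a match were H2ac22, H2bc22, H2bc23, H2bc21 and the 4 single H1 genes. Among the other 31 genes with a match were the histone genes H2ax, H2aw, H2bu2 and H4f16. The 3 most frequent forms, which show how H4 genes differ from the rest, are given 5′ to 3′ as DNA, with the paired stem in capitals and the loop in lower case.
Form of 36 genes (5 H1, 14 H2A, 9 H2B and 8 H3): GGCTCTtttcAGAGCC
Form of 9 genes (1 H1, 1 H2A, 4 H2B and 3 H3): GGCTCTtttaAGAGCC
Form of 7 genes (all H4): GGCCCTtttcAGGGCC
Altogether 8 forms occurred. All 47 stem-loops of H1, H2A, H2B and H3 genes opened with GGCTCT, and none of the 12 of H4 genes did. Of the 36 genes with the most frequent form, 28 had a promoter peak, as did 6 of the 9 with the second form and 4 of the 7 with the H4 form. The share over all protein-coding genes was 45.6%. The H4-form genes without a peak were H4c17, H4c18 and H4c3. The first 2 have largely repeated sequence around their starts, and H4c3 borders absent peak numbers (both described below). Whether the forms differ was not tested.

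The promoters of the gene with the strongest peak in each histone type and of 3 genes without a peak are printed next, so that the peak values can be read against the sequence. Each runs from 250 bases before the RefSeq start site to 30 bases from it on (280 bases from RefSeq, mm10, read on the gene's strand). Capitals mark 5 motifs, searched on both strands: the TATA box, searched as TATAAA, the NF-Y motif CCAAT, the H2B octamer ATTTGCAT (bound by OCT1), the GC box GGGCGG (bound by SP1) and the E2F-like letters TTTNGCGC. H2bc4, the H2B gene with the strongest peak, is named only, and H2bc6 was next. It has several start sites, and the one shown is 782 bases upstream of its strongest summit.
H1f2 (H1, chr13:23738557-23738836, plus strand, strongest peak): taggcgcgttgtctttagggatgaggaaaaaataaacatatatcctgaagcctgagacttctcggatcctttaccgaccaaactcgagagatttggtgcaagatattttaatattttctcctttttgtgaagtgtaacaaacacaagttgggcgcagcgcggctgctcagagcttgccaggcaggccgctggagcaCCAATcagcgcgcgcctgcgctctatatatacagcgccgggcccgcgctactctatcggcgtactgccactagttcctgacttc
H2ac6 (H2A, chr13:23683930-23684209, minus strand, strongest peak): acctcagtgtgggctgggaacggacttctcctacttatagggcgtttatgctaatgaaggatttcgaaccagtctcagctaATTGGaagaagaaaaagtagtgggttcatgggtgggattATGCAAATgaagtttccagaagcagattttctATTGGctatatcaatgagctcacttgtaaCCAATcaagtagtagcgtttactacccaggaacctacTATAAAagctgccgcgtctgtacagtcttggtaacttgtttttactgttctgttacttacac
H2bc6 (H2B, chr13:23585941-23586220, minus strand, second-highest fold): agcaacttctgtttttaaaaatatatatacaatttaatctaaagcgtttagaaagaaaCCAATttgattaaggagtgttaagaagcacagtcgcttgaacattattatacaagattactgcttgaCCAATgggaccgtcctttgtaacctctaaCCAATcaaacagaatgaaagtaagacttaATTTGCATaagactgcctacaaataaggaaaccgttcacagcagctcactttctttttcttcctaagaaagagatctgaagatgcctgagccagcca
H3c6 (H3, chr13:23562356-23562635, minus strand, strongest peak): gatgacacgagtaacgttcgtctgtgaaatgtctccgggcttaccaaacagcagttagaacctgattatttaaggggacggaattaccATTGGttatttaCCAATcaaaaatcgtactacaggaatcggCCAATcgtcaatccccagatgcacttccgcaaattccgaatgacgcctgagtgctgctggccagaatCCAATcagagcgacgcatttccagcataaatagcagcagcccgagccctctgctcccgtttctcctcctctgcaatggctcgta
H4c4 (H4, chr13:23581318-23581597, plus strand, strongest peak): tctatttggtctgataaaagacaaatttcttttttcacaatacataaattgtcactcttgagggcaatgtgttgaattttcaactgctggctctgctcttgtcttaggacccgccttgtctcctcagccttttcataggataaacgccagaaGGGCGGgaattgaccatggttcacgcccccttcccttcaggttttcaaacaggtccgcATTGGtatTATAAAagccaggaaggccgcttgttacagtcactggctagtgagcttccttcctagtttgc
H1f10 (H1, chr6:87981453-87981732, minus strand, no peak): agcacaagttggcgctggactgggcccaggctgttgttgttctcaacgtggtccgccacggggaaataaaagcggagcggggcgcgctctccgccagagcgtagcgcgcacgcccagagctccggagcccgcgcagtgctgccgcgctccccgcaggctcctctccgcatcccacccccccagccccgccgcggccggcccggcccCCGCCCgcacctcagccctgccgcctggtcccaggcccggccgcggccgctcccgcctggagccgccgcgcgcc
H2bc1 (H2B, chr13:23934127-23934406, minus strand, no peak): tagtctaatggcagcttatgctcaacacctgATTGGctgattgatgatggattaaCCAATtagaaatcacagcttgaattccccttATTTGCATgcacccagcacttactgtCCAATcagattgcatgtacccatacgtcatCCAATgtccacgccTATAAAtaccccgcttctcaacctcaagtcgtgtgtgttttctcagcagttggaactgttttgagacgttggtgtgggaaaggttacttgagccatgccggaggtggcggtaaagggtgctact
H4c11 (H4, chr13:21734784-21735063, plus strand, no peak): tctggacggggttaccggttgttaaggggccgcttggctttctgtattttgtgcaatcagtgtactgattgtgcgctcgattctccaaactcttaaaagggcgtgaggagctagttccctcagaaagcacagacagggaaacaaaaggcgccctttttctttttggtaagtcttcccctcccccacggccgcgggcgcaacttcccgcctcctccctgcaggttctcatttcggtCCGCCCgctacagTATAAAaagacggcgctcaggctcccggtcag
A TATA box stood 32 bases before the start site in both H2ac6 and H4c4. In H4c11 it began 2 bases before the annotated start, and in H2bc1 94 bases before it. H2ac6 held 3 CCAAT boxes and 1 octamer, the H2bc6 promoter 3 CCAAT boxes and 1 octamer, and H2bc1, which had no peak, 4 CCAAT boxes and 1 octamer. The strongest H1f2 peak lay inside its printed sequence, from −246 to −98 relative to the start site, whereas no peak touched the printed bases of H2ac6, H3c6 or H4c4.

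A promoter peak, meaning at least 1 base of a listed peak within 2 kb of a start site, was found at 46 of the 67 histone genes (68.7%, Wilson 95% interval 56.8 to 78.5%). The same was true of 45.6% of all protein-coding genes. A summit, the position of most signal in a peak, lay within 500 bp of a start site at 25 histone genes (37.3%), compared with 30.2% of all genes. Neighbouring histone genes share windows and peaks, so they are not independent. When overlapping windows were merged, 24 of 34 (70.6%) held a peak, but merged windows are wider and have no all-gene share to compare with. With each peak counted for its nearest start site only, 62.7% of histone genes and 43.9% of all genes had a peak.

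The peaks were not higher than those of other genes by their median. The strongest peak of each histone gene had a median fold enrichment over the control of 6.58 (order-statistic 95% interval 5.37 to 7.80, 46 genes), beside 7.24 (7.11 to 7.37) over all genes with a promoter peak. The 46 values rest on 31 distinct peaks, so they are not independent. With each peak counted for its nearest start site only, the medians were 5.65 and 6.94, and with a 1 kb window 5.71 and 7.04. With peaks of a −log10 q of at least 5, both were 7.80. Fold enrichment is the caller's ratio of the library's signal at the summit to its local background, for which the study used IgG. Together the histone genes had 93 distinct promoter peaks, of which 43 lay in the windows of 2 or more of them. Their median width was 141 bp and their median fold 5.22, against 184 bp and 5.55 over all 24946 promoter peaks. Among the histone peaks, 52.7% reached a −log10 q of 5, compared with 59.2% of all promoter peaks. When peaks were held to that threshold, 52.2% of histone genes and 37.9% of all genes kept a peak, and with the strongest 25% of all peaks the shares were 34.3% and 29.3%.

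**Figure D1:**
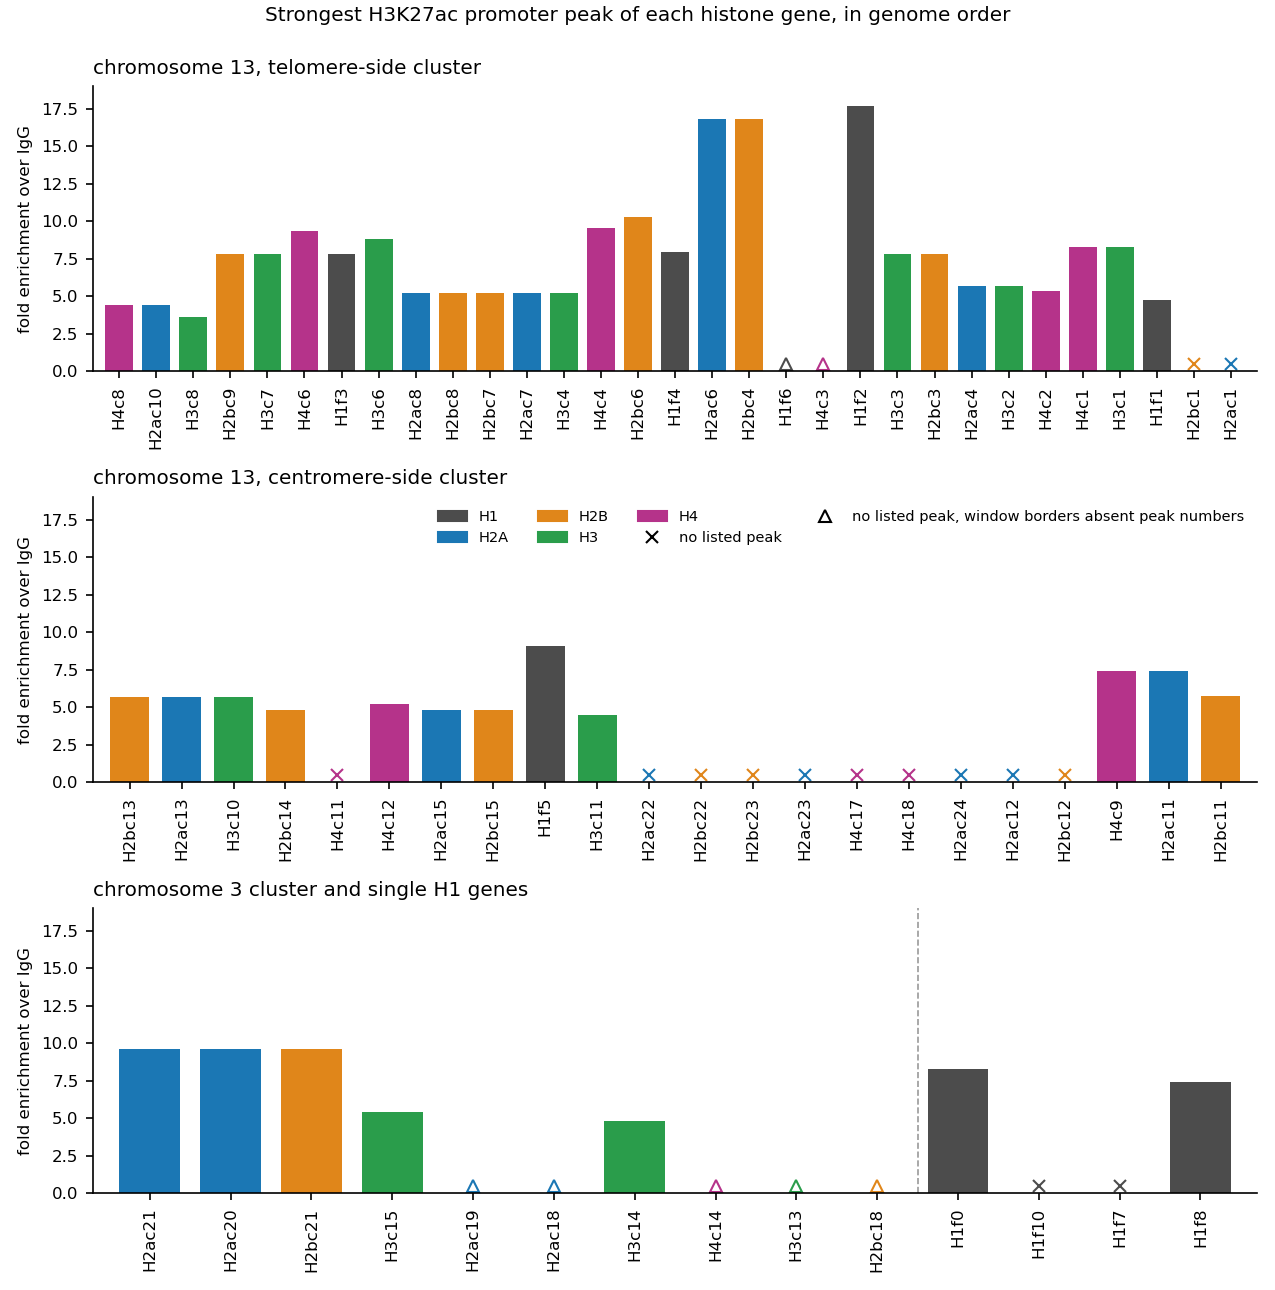
Strongest promoter peak of each of the 67 histone genes in genome order, as fold enrichment over IgG (y axis, linear), colored by histone type; crosses are genes without a listed peak and triangles are such genes whose window borders absent peak numbers. H1f2 (17.7) and the pair H2ac6 and H2bc4 (16.8) stand highest, and 9 neighbouring genes from H2ac22 to H2bc12 have no listed peak.

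The strongest single peak was at H1f2, a gene for a linker histone, which had 4 promoter peaks, all upstream of its start. Its highest fold was 17.7, with a summit 192 bp before the start site. The caller's values gave whole fragment counts (recovered to within 0.01 in −log10 p for every peak in the list), and 40 fragments stood at this summit (exact Poisson 95% interval 28.6 to 54.5) over a background of 1.06. A neighbouring H1f2 peak, at chr13:23738376-23738474, reached a fold of 17.4 with 58 fragments, the most at any histone promoter peak, over a background of 2.00. A peak farther out, at chr13:23738127-23738290, had a fold of 12.8. Next came the divergent pair H2ac6 and H2bc4, which shared a 731 bp peak of 16.8-fold with 38 fragments (26.9 to 52.2). The summit was 1362 bp downstream of the H2bc4 start and at −1602 bp from that of H2ac6. An adjoining peak of 12.1-fold lay in the same windows. H2bc6 followed with 10.3 (26 fragments), and H2ac20, H2ac21 and H2bc21 on chromosome 3 shared 1 peak of 9.61-fold (25 fragments). The fragment intervals of 12 of the 46 genes, H1f2 included and resting on 9 distinct peaks, overlapped that of the 40 fragments of H1f2. These intervals cover fragments and not fold, and overlap alone does not settle whether 2 counts differ. The order by fold was not tested, and none is claimed within this group.

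At the other end, H3c8 had the weakest strongest peak, 3.58-fold with 11 fragments (5.49 to 19.7). H4c8 and H2ac10 shared a peak of 4.38-fold with 10 fragments. The median over all 93 peaks was 13 fragments, for which counting error alone is 27.7%. The median control background was 1.25 and 34 peaks sat at its most frequent value, 1.05. Most genes had several peaks: 6 had 1, 6 had 2, 18 had 3, 11 had 4 and 5 had 5 or more. H2bc6, with 3 start sites, had 9, and H1f3 had 7, of which the strongest was 7.80-fold.

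By histone type, the share with a promoter peak was highest for H3, at 11 of 12 genes (91.7%, 64.6 to 98.5%), and the H3 gene without one was H3c13, whose window bordered peak numbers absent from the list. It was 7 of 10 for H1 (70.0%, 39.7 to 89.2%), 11 of 16 for H2B (68.8%, 44.4 to 85.8%), 10 of 17 for H2A (58.8%, 36 to 78.4%) and 7 of 12 for H4 (58.3%, 32 to 80.7%). Genes without a peak in these types also include some that border absent numbers or have mostly repeated windows (measured below). With mostly repeated windows left out, the counts were 11 of 15 for H2B, 10 of 15 for H2A and 7 of 10 for H4. With genes bordering absent numbers left out instead, they were 6 of 8 for H1, 10 of 14 for H2B, 8 of 13 for H2A and 5 of 8 for H4. The intervals of all 5 types overlapped, and the lead of H3 was lost under narrower choices: with a 500 bp window, or with peaks of a −log10 q of at least 5, 7 of 12 H3 and 6 of 10 H1 genes had a peak, and with the strongest 25% of peaks 4 of 12 and 6 of 10. The median of the strongest folds of H3 genes was the lowest of the 5 types, 5.64, with a maximum of 8.80 at H3c6. That median is the value of H3c10, from a peak with its summit 36 bp inside H2bc13 and at −1481 bp from the H3c10 start. Neighbours of different types share peaks, so the medians by type count some of the same peaks. H2A genes had a median of 5.65 and H2B genes of 5.76. H1 genes had the highest median, 7.96 (range 4.77 at H1f1 to 17.7 at H1f2), and H4 genes 7.39 (4.38 at H4c8 to 9.53 at H4c4). The H4c4 value came from a 1544 bp peak whose summit was 2602 bp downstream, beyond its window and nearer to H2bc6. In H2A the lowest value was at H2ac10 (4.38), and in H2B it was 4.79, at H2bc14 and H2bc15.

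**Figure D2:**
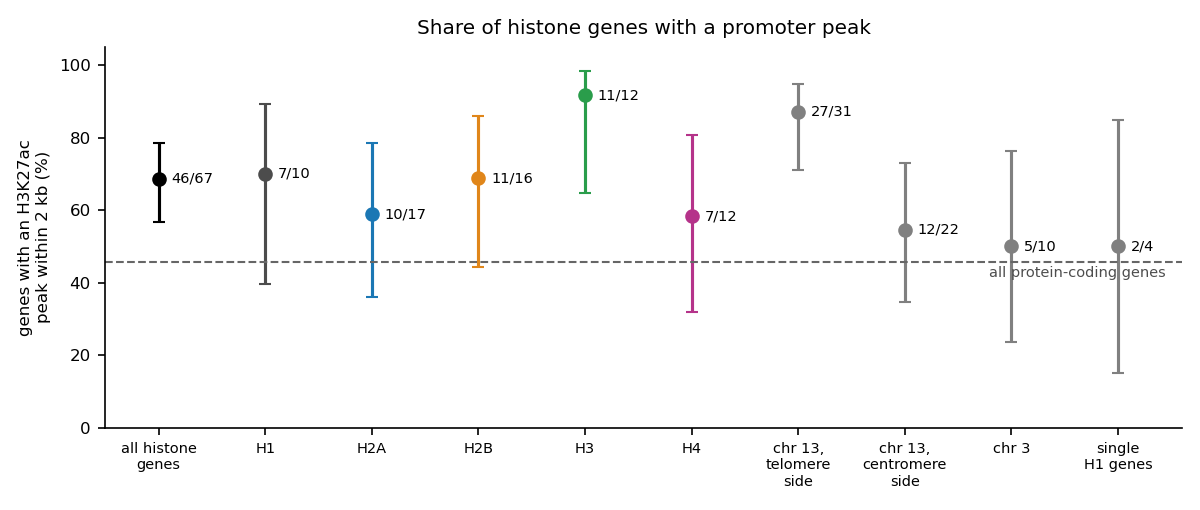
Percent of histone genes with an H3K27ac peak within 2 kb of a start site (y axis), for all 67, by type and by cluster; bars are Wilson 95% intervals, labels give counts, and the dashed line is the share over all protein-coding genes. The intervals of all 67 genes, of H3 genes (11/12) and of the telomere-side chromosome 13 cluster (27/31) are drawn wholly above the line. Neighbouring genes share peaks and are not independent, so the intervals are no test against the line.

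By cluster, the share ranged from 50.0% to 87.1%. Chromosome 13 carries the large Hist1 locus in 2 pieces. In the telomere-side piece (chr13:23531044-23934913, 404 kb) 27 of 31 genes had a peak (87.1%, 71.1 to 94.9%), with strongest folds from 3.58 at H3c8 to 17.7 at H1f2. In the centromere-side piece (chr13:21715711-22043658, 328 kb) 12 of 22 did (54.5%, 34.7 to 73.1%), from 4.46 at H3c11 to 9.10 at H1f5. These intervals overlapped slightly. The chromosome 3 cluster (chr3:96219885-96270192, 50.3 kb) had peaks at 5 of 10 genes (50.0%, 23.7 to 76.3%), from 4.79 at H3c14 to 9.61 at H2ac20, H2ac21 and H2bc21. Of the single H1 genes, H1f0 (8.24) and H1f8 (7.39) had a peak, and H1f7 and H1f10 had none. H1f8 is known as the oocyte linker histone and H1f7 as a testis form.

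All 3 clusters held more peaks per Mb than their chromosomes as a whole, a comparison that does not allow for how closely genes lie. The telomere-side piece held 68 peaks (168 per Mb) and the centromere-side piece 27 (82.3 per Mb), 4.00 and 1.96 times the 42.1 per Mb of chromosome 13 as a whole. The chromosome 3 cluster held 10 peaks (199 per Mb), 4.70 times that chromosome's 42.3 per Mb. Of these peaks 59, 17 and 7 touched a histone promoter window. Between the first and last histone gene of the clusters lay 10 protein-coding genes outside the rule. Of these, 2 had a promoter peak, Zfp184 (7.04) and Hfe (6.94). Those with none listed were the histone gene H4bc24, which was kept apart, Slc17a1 to Slc17a4 (solute carrier genes), Trim38, Pom121l2 and Prss16.

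In all, 21 histone genes had no listed promoter peak, and they fell into 2 sets. Peaks are numbered along the genome, and 584 numbers are absent from the list. For 7 of the 21 genes (H1f6 and H4c3 on chromosome 13, and H2ac18, H2ac19, H3c13, H4c14 and H2bc18 on chromosome 3) the window bordered absent numbers, so whether a peak was called there is not known. If all 7 had one, 53 of 67 genes (79.1%) would have a peak, among them every H3 gene and every gene of the chromosome 3 cluster. Counted the same way, the share over all protein-coding genes was 48.6%. Absent numbers also bordered the windows of 8 genes that had a peak, H1f2 and H4c8 among them. With all 15 such genes left out the share was 73.1% (38 of 52), for which no share over all genes was computed. The nearest listed peaks just beyond 2 kb belonged to H2ac19 and H2ac18, at 2104 and 2256 bp, and then to H2ac22 at 3236 bp. Just inside, the farthest peak that gave a gene its call was that of H1f1, 1640 bp from the start.

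The remaining 14 genes without a peak bordered no absent number. On chromosome 13 a run of 9 neighbours, H2ac22, H2bc22, H2bc23, H2ac23, H4c17, H4c18, H2ac24, H2ac12 and H2bc12, had no promoter peak (chr13:21786774-22036320), although 10 peaks lay elsewhere in that interval. H4c11 lay alone in a peak-free stretch of 27.9 kb. H2bc1 and H2ac1, the divergent pair known for testis-specific histones, lay in a peak-free stretch of 344 kb, with the nearest peak 171488 bp from H2bc1. H1f7 and H1f10 completed the set. H1f10 encodes a widely expressed replacement linker histone, and the peak nearest to it was 13000 bp away.

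Histone genes are near-copies of each other, so the uniqueness of each window was measured in the reference chromosomes. The study's methods kept read pairs with up to 2 alignments and dropped the rest. The processing notes name another aligner, so whether that filter applied to this list is not known. The share of 64-base words that occur once in the genome had a median of 86.6% over the 67 windows, compared with 99.2% over every 50th other protein-coding gene (419 genes). The windows of 5 neighbours in the run stood far below: H2bc23 (2.12%), H2ac23 (3.52%), H2ac24 (4.22%), H4c17 (6.07%) and H4c18 (22.3%). No other histone window was under 50% by this measure, and none of the 46 genes with a peak was (lowest 54.4%). Most words of the H2bc23, H2ac23 and H2ac24 windows occurred in exactly 2 places (77.2 to 77.9%), which the filter in the methods would keep. Words in more than 2 places made up 18.6 to 20.0% of these 3 windows, 19.5% of H4c18 and 47.2% of H4c17. The median over genes with a peak was 9.90%, and H2ac7 and H2bc7, which had peaks, stood at 20.4%. In the other 4 genes of the run (H2ac22, H2bc22, H2ac12 and H2bc12) 84.7 to 86.5% of words were unique, within the range of the genes with a peak. With the 5 genes left out, 46 of 62 (74.2%) had a peak. In the centromere-side piece, where all 5 lie, the share was then 12 of 17 (70.6%), beside 87.1% in the telomere-side piece. The part of repeated sequence in these missing calls was not tested.

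**Figure D3:**
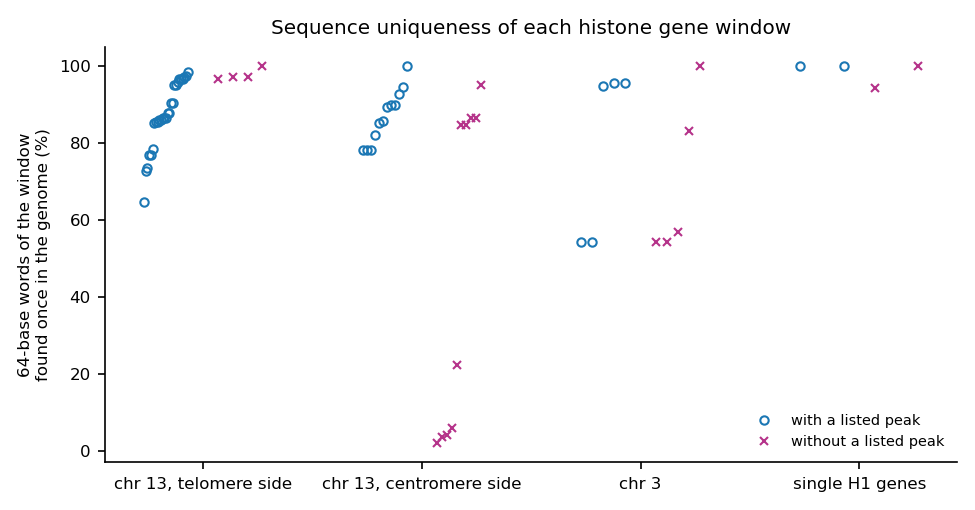
Percent of the 64-base words in each histone gene window (2 kb either side of the start) that occur once in the reference genome (y axis), by cluster; circles have a listed promoter peak and crosses have none. The lowest 5 crosses of the centromere-side chromosome 13 cluster lie between 2.12% and 22.3%, and every circle lies at 54.4% or above.

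Around the start site, peaks flanked the gene and seldom covered its start. In 100 bp bins, the bin just upstream of the start was covered by a peak at 2.90% of 69 histone start sites and 3.34% of all 26242 protein-coding start sites. A peak lay over the start base itself at 4 histone genes (H1f5, H2bc13, H2bc21 and H2bc9, 5.97%), compared with 3.78% of all genes. Coverage rose to 21.7% of histone sites 750 to 850 bp upstream, where all sites had 9.64 to 10.8%, and to 26.1% at 650 bp downstream, where all sites had 18.5%. Across the 149 pairs of a gene and a peak, 25 summits were more than 1 kb upstream, 41 within 1 kb upstream, 15 within the first 500 bp of the gene, 30 from 500 bp to 1 kb and 38 farther downstream. These pairs came from 93 distinct peaks, and a peak downstream of one gene can count again as upstream of its neighbour. For example, the same summit was 635 bp downstream of the H2bc15 start and at −799 bp from that of H2ac15. The bins count shared peaks in the same way, and no such split is given over all genes.

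Sequence uniqueness was lowest inside the gene and high just upstream of the start. Unique 64-base words made up 34.2% of positions at 250 bp downstream, in the coding sequence, where 8.70% of histone sites and 8.72% of all sites were covered. Histone coverage inside the gene was lowest in the next bin, at 350 bp, with 5.80% of histone sites against 12.6% of all sites and 51.1% of 64-base words unique. They made up 89.2% in the bin just upstream of the start and 86.9% at 650 bp downstream. A shallower fall, to 68.3%, was seen 450 bp upstream, where divergent neighbours have their own coding sequence and where 14.5% of histone sites were covered.

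**Figure D4:**
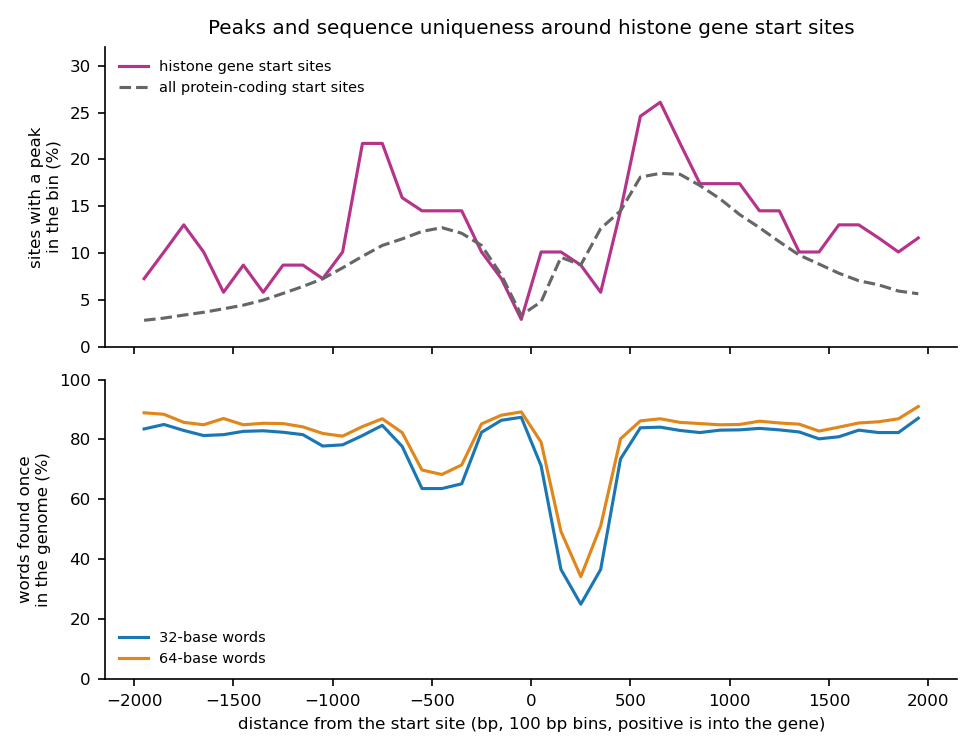
Top, percent of start sites with a peak in each 100 bp bin (y axis) against distance from the start site in bp, for histone and all protein-coding start sites; bottom, percent of 32- and 64-base words around histone start sites that occur once in the genome. Histone coverage peaks at 26.1% at +650 bp and falls to 2.90% just upstream of the start, while uniqueness is lowest, 34.2% for 64-base words, at +250 bp.

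H2A and H2B genes often share a promoter between divergent starts. There were 11 such pairs, with starts 164 to 281 bp apart. At 7 pairs a peak lay in a window, and at 4 (H2ac22 with H2bc22, H2bc23 with H2ac23, H2ac12 with H2bc12, and H2bc1 with H2ac1) neither gene had one. A peak reached into the edge of the sequence between the starts at 2 pairs, H2bc13 with H2ac13 (5.64) and H2ac20 with H2bc21 (9.61). The first ended at 21716213, past the H2bc13 start at 21716183, with its summit 36 bp inside H2bc13. The second began at 96221071, next to the H2bc21 start at 96221072, with its summit 123 bp inside H2bc21. For H2ac6 and H2bc4, the pair with the highest fold, all 6 peaks lay outside the sequence between the starts.

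RefSeq promoters, 300 bases each, were matched for 62 of the 67 genes (63 promoters) and compared with 21263 protein-coding promoters. A CCAAT box was found in 82.5% of histone promoters and 38.2% of all, and in each of the 17 H2A, 15 H2B and 10 H3 promoters but only 3 of 11 H4 promoters (27.3%). The TATA box stood in 54.0% against 12.6%, most often in H4 (8 of 11, 72.7%). The octamer occurred in 20.6% against 1.66%, in 6 H2A and 7 H2B promoters and in none of H1, H3 or H4. The E2F-like letters occurred in 20.6% against 1.74%, in 7 H2A and 6 H2B promoters. The GC box was no more frequent than elsewhere, 39.7% against 46.2%, but ranged from 13.3% in H2B to 72.7% in H4. Matches of different motifs overlapped in 0 promoters, and 18 promoters overlapped that of another histone gene, so that a divergent pair can count the same match for both. A match is a description of letters and not of binding.

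**Figure D5:**
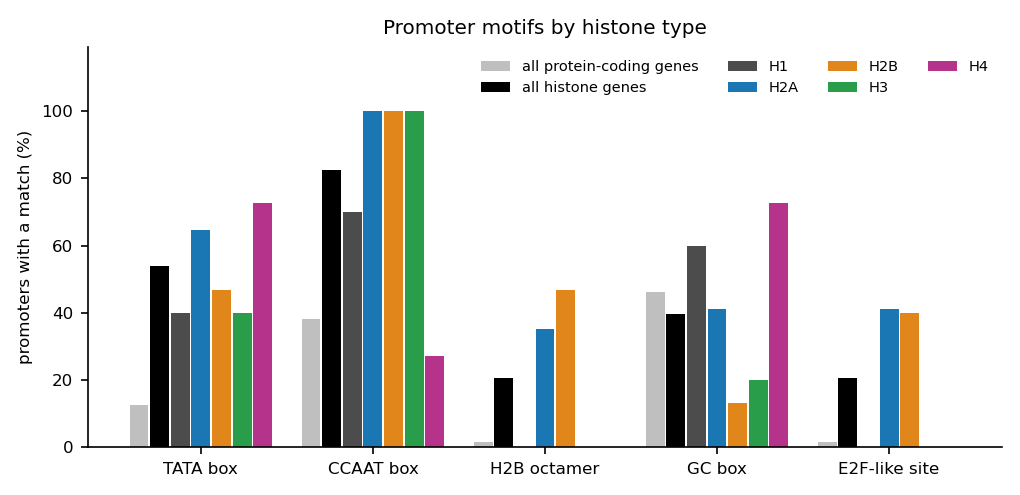
Percent of RefSeq promoters (y axis, 300 bases) with a match to each of 5 motifs on either strand, for all protein-coding genes, all histone genes and each histone type. The CCAAT box is in 100% of H2A, H2B and H3 promoters and 27.3% of H4 promoters, and the octamer and E2F-like letters are found in H2A and H2B alone among the types.

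Promoter sequences of histone genes with and without a peak were set side by side. The TATA box was in 55.8% of promoters of genes with a peak and 50.0% of those without, the CCAAT box in 37 of 43 and 15 of 20, the octamer in 8 and 5, the GC box in 19 and 6, and the E2F-like letters in 6 and 7. CpG density, as the observed over expected ratio within 500 bp of the start, had a median of 0.869 with a peak and 0.890 without. Over all 67 genes it was 0.872, compared with 0.615 over all protein-coding genes. A promoter peak was listed at 43 of the 59 genes with a stem-loop (72.9%, 60.4 to 82.6%) and at 3 of the 8 without.

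Genes that act on histone genes or their products were counted from lists set beside the rule. Of 18 genes for transcription and mRNA end processing, 16 had a promoter peak (88.9%, 67.2 to 96.9%). They included Npat (12.9), whose product gathers the histone locus body, Casp8ap2 (8.24), which encodes its partner FLASH, Slbp (5.75), Lsm10 (11.7) and Cpsf2 (13.7), which encodes a subunit of the cleavage complex. Cell-cycle regulators of histone transcription were also listed, with Cdk2 at 7.37, Ccne1 at 3.93, Ccne2 at 5.22 and E2f1 at 9.53. Lsm11 and Eri1, which encodes an exonuclease that trims the mRNA end, had none. Of 12 genes for histone supply and deposition, 10 had a peak (83.3%, 55.2 to 95.3%), among them Chaf1a (9.96), Asf1a (10.4) and Nasp (4.67). Asf1b, a paralog of Asf1a, and Chaf1b, which like Chaf1a encodes a subunit of the replication-coupled assembly factor CAF-1, had none listed. These shares stand beside the 45.6% of all protein-coding genes.

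Replication-independent histones, which can be made outside S phase, had a peak at 9 of 13 genes (69.2%, 42.4 to 87.3%), beside 68.7% of the 67 genes of the rule. H2az2 (9.79), H2aj (9.54), Cenpa (8.67), which marks the centromere, and H3f3a (7.13) were among them. H1f0 and H1f10 belong to both sets. Of the genes carrying a cluster symbol only as an older name, H2aw (6.66) and H4f16 (3.52) had a peak, and H2bu2 and H4bc24 had none.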

How the data were processed

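Nuclei from MCP tumors were profiled by H3K27ac CUT&RUN. According to the study's methods, the authors mapped read pairs to mm10 with bowtie, keeping at most 2 alignments, removed problematic regions and called peaks against IgG with MACS1.4, whereas the submitters' processing notes name BWA, SAMtools and MACS2 and the builds mm10 and dm6; the 1 deposited list has the layout of MACS2. Per the file's columns, the deposited values are a score, a fold enrichment ratio, −log10 p and −log10 q and a summit position. The score is 10 times −log10 q rounded down and was not analysed. Read totals were not analysed here, so depth is known only as fragments per peak. These were recovered from the fold and −log10 p (every peak solved within 0.01 in −log10 p, 91.5% by a single whole number, scale 0.885).

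Peaks were joined to GRCm38.p6 RefSeq start sites (NM and NR records, the same assembly as mm10) 2 kb either side, in Python 3.11.15 with pandas 2.3.3, numpy 2.4.6 and scipy 1.17.1. Genes closer than 500 kb formed a cluster. Shares have Wilson 95% intervals. The genes and lists were chosen with earlier results of these data known. Named genes were the highest and lowest in each type and cluster, all without a peak, and those nearest to 2 kb. Word counts (32 and 64 bases) covered both strands of the reference chromosomes, and joins, stem-loop search and word counts were tested on simulated data. 1 myogenic marker of the list is not reported here, and the count leaves it out.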

Additional observations from a re-analysis of the deposited data

How the results depend on the processing

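No paired analysis was possible because the values came from 1 library and no groups were compared. Of 124 values computed under another choice, 100 stayed within the interval of the value reported (for a count of peaks, within 1.5 times) and 24 moved. With a window of 500 bp, 46.3% of histone genes had a peak, beside 36.3% of all protein-coding genes. The share was 29.4% for H2A, 43.8% for H2B and 58.3% for H3 genes. It was 27.3% for the centromere-side and 64.5% for the telomere-side chromosome 13 genes, and 40 histone promoter peaks remained in all. At a −log10 q of at least 5 the values were 52.2%, 58.3% for H3, 31.8% and 71.0% for the 2 chromosome 13 pieces, and 49 peaks. With the strongest 25% of peaks they were 34.3% of all 67 genes, 23.5% for H2A, 31.2% for H2B, 33.3% for H3, 13.6% and 48.4% for the 2 pieces, 30 peaks and a median strongest fold of 8.24. In these 3 settings 6 of 10 H1 genes had a peak. Fewer peaks or narrower windows lower these counts by construction. The median fold was 4.79 when each gene's peaks were averaged by their median. Leaving out genes bordering absent peak numbers gave 100% for H3 (9 of 9) and for the chromosome 3 cluster (3 of 3). Counting such genes as having a peak gave 79.1%, beside 48.6% of all protein-coding genes counted the same way. That alternative, and those that left out genes with repeated windows or the single H1 genes or added older symbols (74.2%, 69.8% and 67.6%), were chosen after seeing the data. Depth limits single peaks, with a median of 13 fragments, and without replicates the spread between tumors is unknown.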
